A study of Mus musculus with 6 samples.

Results

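The 9 genes described here are members of the pathway that loads and displays peptides on major histocompatibility complex (MHC) class I molecules, with Nlrc5, the gene for the transcriptional activator of that pathway. They were taken by name: Nlrc5, the heavy chain genes H2-K1, H2-D1 and H2-Q8, the light chain gene B2m, the transporter genes Tap1 and Tap2, and the immunoproteasome genes Psmb8 and Psmb9. All 9 were found among the 20284 genes that probes on the array could be tied to through RefSeq accessions. They are covered by 11 of the 55681 probes, and the brightest probe stood for each gene. Levels were measured on 6 single-colour Agilent arrays of KSL cells, the c-Kit+ Sca1+ Lineage- fraction of blood-forming tissue that is enriched for hematopoietic stem cells, from mice of the C57BL6 background. The fetal liver arrays were 1 WT array (Tie2-Cre, Tif1bw/w) and 1 KO array (Tie2-Cre, Tif1bf/f). The adult bone marrow arrays were 2 WT (CreERT, Tif1bw/w) and 2 KO (CreERT, Tif1bf/f), and the second of each is labelled Tif2b, which was read as the same gene. Every group thus carries a Cre transgene. Tie2-Cre is active in endothelial and blood-forming cells, and CreERT is a recombinase that a drug switches on. The age of the fetuses, the age of the adults, the time of induction and the pooling of animals are not given in the labels. Tissue was therefore compared together with the Cre line, and also with the slide, since 1 slide held the fetal liver arrays and the other 2 slides held 1 bone marrow WT and KO pair each. These influences cannot be told apart.

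MHC class I molecules present short peptides from inside the cell to CD8 T cells and are read by natural killer cells. A heavy chain pairs with beta-2-microglobulin, the peptides are cut by the proteasome and carried into the endoplasmic reticulum by the TAP transporter, and interferon gamma raises the whole set. NLRC5 does not bind DNA by itself. It is brought to class I promoters by the RFX, CREB/ATF and NF-Y factors, which sit side by side on the X and Y boxes. TIF1b, the product of Trim28, represses genes to which zinc finger proteins bring it, and it binds HP1 proteins. Adult bone marrow stem cells display class I at their surface, and class I is low on many embryonic cells.

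Levels are log2 of the background-corrected signal minus the 75th percentile of the array, so that 0 is the 75th percentile probe. A gene was well above background on an array where the scanner software flagged it so, and it was called where limma gave a Benjamini-Hochberg adjusted p under 0.05 over all genes tested. The 75th percentile signal was 211 to 219 in fetal liver and 281 to 743 in bone marrow, with 24385 to 31423 probes well above background. The array labelled bone marrow WT replicate 1 stood apart. Its scanner file and its column in the deposited value table matched within 1% for 1.41% of the probes compared, against 100% on each of the other 5 arrays. Trim28 stood at 2.45 by the scanner file and at 5.18 by the table column, beside 5.54 to 5.97 on the other WT arrays and 0.75 to 1.67 on the KO arrays. Kit, used for the sort, was 1.30 by the scanner file and 4.16 by the table column, beside 4.17 to 4.50 elsewhere. Ly6a, the gene for Sca-1, was 0.31 and 0.77 in fetal liver and 3.36 to 6.04 in bone marrow. In the scanner file all 12 B lymphoid markers were well above background, with a summed signal of 453 times the 75th percentile, beside 25.6 in the table column and 15.4 to 45.1 on the other arrays. The description lines of bone marrow replicate 1 also name knockdown cells. Results of the 9 genes that use this array are therefore given from both sources, and the comparison of KO arrays does not use it.

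Bone marrow KSL cells carried more of all 9 transcripts than fetal liver KSL cells. Each of the 4 bone marrow arrays lay above both fetal liver arrays for every gene, with either source of the doubtful array. The same held for 12.9% of all genes tested with the scanner files and for 17.7% with the table column. The size of the difference was unequal, and with the brightest probe of each gene Nlrc5 and H2-Q8 stood above the other 7. For Nlrc5 this depended on the probe: with the mean of its 2 probes it differed by 3.40 in WT, below Tap1 at 3.77, and by 3.79 in KO, beside 3.36 for Tap1. With normexp background correction Nlrc5 was at 4.35 in WT and 3.74 in KO, beside 3.48 and 3.55 for H2-D1, the next gene. In bulk RNA, more cells expressing a gene and more RNA per cell cannot be told apart.

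**Figure D1:**
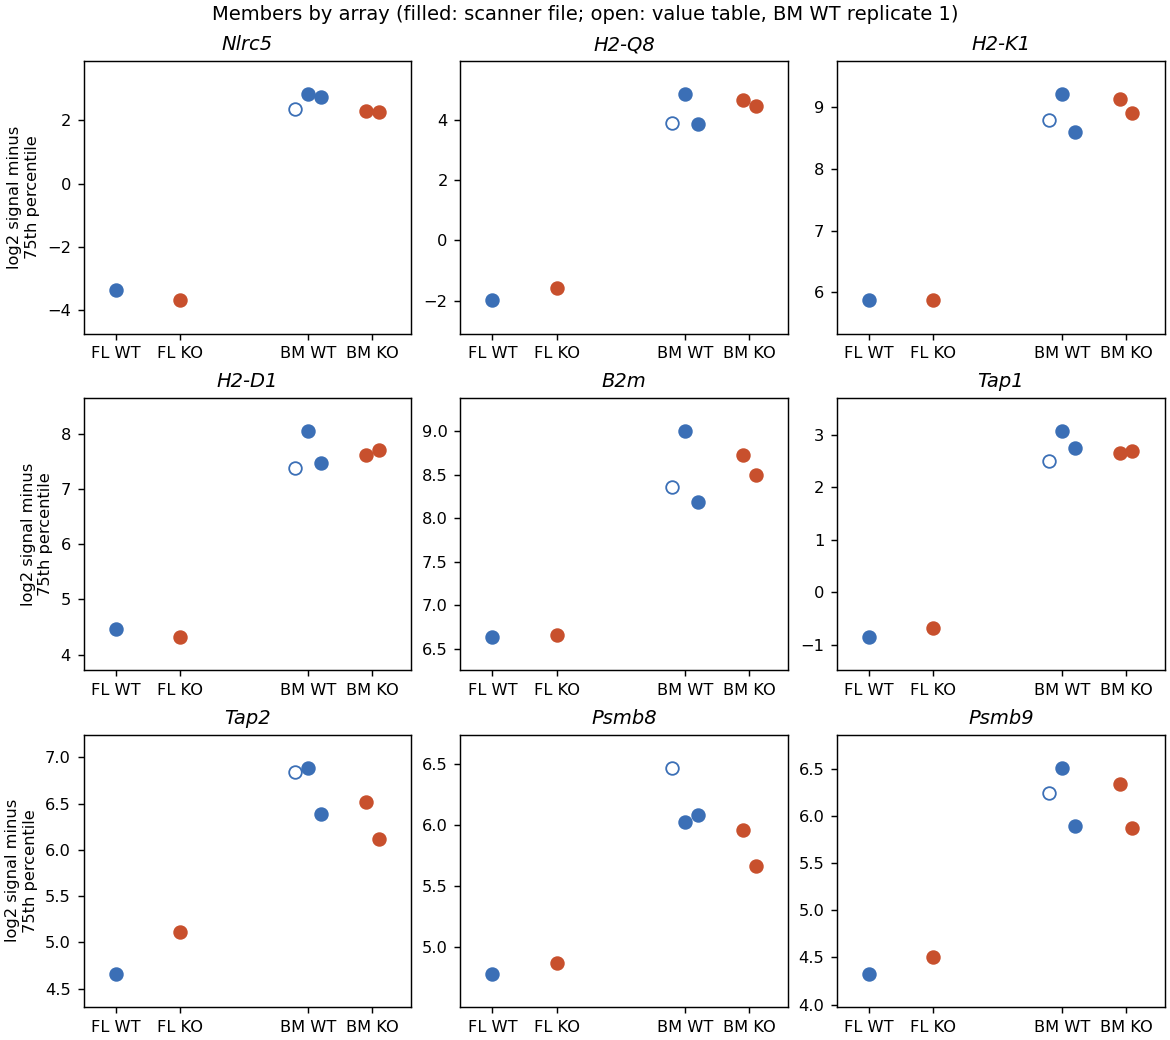
Level of each gene on every array (log2 signal minus the 75th percentile of the array; the axis range differs between panels), with fetal liver (FL) and bone marrow (BM) WT arrays in blue and KO arrays in orange. Open points are the value table's column of BM WT replicate 1. In all 9 panels the bone marrow points lie above the fetal liver points; the fetal liver points of Nlrc5 are not well above background.

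Nlrc5, the activator, had a level of -3.36 on the WT and -3.70 on the KO array of fetal liver, and neither was well above background. In bone marrow its level was 2.83 (table column 2.35) and 2.75 in WT and 2.29 and 2.27 in KO, all well above background. The processed signals were 21.3 and 16.3 in fetal liver and 1587 to 4954 in bone marrow. Because the fetal liver side is only a bound, the brightest probe is given an approximate least difference. It was 47.9-fold in KO cells and 66.8-fold (table column 56.6-fold) in WT cells. The bound sets the bone marrow mean against the lowest signal that was well above background on the fetal array. A probe that was not flagged could lie above that level. H2-Aa did so at -2.95 in fetal liver WT, where the lowest flagged level was -3.27. The same limit applies to the bounds of other genes below. With normexp, or with the mean of its 2 probes, Nlrc5 differed by less than these bounds. A second Nlrc5 probe was dim, between -2.63 and -3.21 on the 4 bone marrow scanner files, all well above background. It was -3.41 and -4.52 on the WT and KO fetal liver arrays, neither well above background. Its measured difference was 0.65 in WT (table column 0.46) and 1.60 in KO, far smaller than that of the brightest probe.

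The heavy chain genes encode the part of the molecule that holds the peptide. H2-K1 and H2-D1 are the classical class I genes of this background, and H2-Q8 is a gene of the Qa-2 group. Class I genes are close in sequence, so a probe for any of them may also have measured its relatives. H2-Q8 was -2.0 and -1.58 in fetal liver WT and KO, 4.85 (table column 3.91) and 3.86 in bone marrow WT, and 4.65 and 4.46 in bone marrow KO. It was well above background on all 6 arrays, so that its difference was measured on both sides. Among the KO arrays it was 6.13 ± 0.52 (SE), or 70.2-fold (95% confidence interval 33.9 to 145), and ranked number 3 of 11582 genes above background in both tissues.

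H2-K1 was 5.89 and 5.87 in fetal liver WT and KO, 9.21 (table column 8.79) and 8.60 in bone marrow WT, and 9.13 and 8.90 in bone marrow KO. Its difference among KO arrays was 3.15 ± 0.52 (SE), or 8.85-fold, and its second probe gave 2.95. H2-D1 was 4.46 and 4.32 in fetal liver, 8.05 (table column 7.38) and 7.47 in bone marrow WT, and 7.62 and 7.70 in bone marrow KO. Its difference among KO arrays was 3.34 ± 0.52 (SE), or 10.2-fold. The distance between tissues exceeded the spread within bone marrow several times over for both genes. B2m, the light chain shared by all class I molecules, was 6.63 and 6.66 in fetal liver, 9.0 (table column 8.36) and 8.18 in bone marrow WT, and 8.73 and 8.50 in bone marrow KO. Its difference among KO arrays was smaller, at 1.96 ± 0.52 (SE), or 3.88-fold.

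TAP1 and TAP2 are the subunits of the peptide transporter, and their genes moved by different amounts. Tap1 was -0.86 and -0.68 in fetal liver WT and KO, 3.07 (table column 2.50) and 2.76 in bone marrow WT, and 2.66 and 2.70 in bone marrow KO. Its difference among KO arrays was 3.36 ± 0.52 (SE), or 10.3-fold. Tap2 was 4.66 and 5.11 in fetal liver, 6.89 (table column 6.84) and 6.38 in bone marrow WT, and 6.51 and 6.11 in bone marrow KO. Its difference among KO arrays was 1.20 ± 0.52 (SE), or 2.30-fold, and did not pass the test. Psmb8 and Psmb9 encode immunoproteasome subunits that replace constitutive ones. Psmb9 was 4.32 and 4.50 in fetal liver, 6.51 (table column 6.24) and 5.89 in bone marrow WT, and 6.34 and 5.88 in bone marrow KO, a difference of 1.61 ± 0.52 (SE) among KO arrays. Psmb8 was 4.78 and 4.87 in fetal liver, 6.03 (table column 6.47) and 6.09 in bone marrow WT, and 5.97 and 5.67 in bone marrow KO. It differed least among KO arrays, by 0.95 ± 0.52 (SE), or 1.93-fold, and did not pass the test.

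Tested by limma in the KO arrays, 7 of the 9 genes rose in bone marrow, where 7.24% of the 13014 genes tested were called higher. The adjusted p was 5.89e-13 for H2-Q8, 1.21e-12 for Nlrc5, 1.65e-06 for Tap1, 1.81e-06 for H2-D1, 5.97e-06 for H2-K1, 0.0046 for B2m and 0.0251 for Psmb9, all from limma. Tap2 (limma adjusted p = 0.121) and Psmb8 (limma adjusted p = 0.255) were not called. The median difference of the 9 genes was 3.15, against -0.25 over all genes tested. All 9 passed the filter on low signals, which asks for a signal well above background on every array of at least 1 group. Nlrc5 passed it only through bone marrow, so that it had to differ. Of the other 8, limma called 6 higher. This fit has 3 arrays and takes its spread almost wholly from the average over all genes, and the fetal liver array is assumed to vary like the bone marrow arrays. With all 6 arrays in 1 fit, which brings in the doubtful scanner file, limma called 0 of the 9, and 6 of the 9 with the table column.

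In the WT arrays the differences were close to those of the KO arrays, but the calls depended on the source of 1 array. With the table column, limma called 9 of the 9 higher in bone marrow, where 6.02% of 13014 genes were called higher. Nlrc5 again passed the filter only through bone marrow, and of the other 8 limma called 8. The differences of the other 8 were 5.88 for H2-Q8, 3.48 for Tap1, 2.96 for H2-D1, 2.81 for H2-K1, 1.95 for Tap2, 1.74 for Psmb9, 1.64 for B2m and 1.5 for Psmb8. The limma adjusted p-values lay between 1.53e-05 and 0.03. With the scanner file the differences were 1.28 to 6.36, and limma called 0 of the 9 (adjusted p 0.464 to 0.732). In that fit 0 of 13118 genes (0%) were called, and 792 had an unadjusted p under 0.05. Over both genotypes, in 1 model of tissue plus genotype, limma called 5 of the 9 with the scanner files (Nlrc5, H2-Q8, Tap1, H2-D1 and H2-K1), where 0.871% of genes were called higher. With the table column it called 9 of the 9, where 8.91% of genes were called higher. In both of these fits Nlrc5 passed the filter only through bone marrow and so had to differ. Leaving out any of the 2 fetal liver or 2 bone marrow KO arrays left 0 of the 9 called with the scanner files, leaving out bone marrow WT replicate 2 left 2, and leaving out the doubtful array gave 8.

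**Figure D2:**
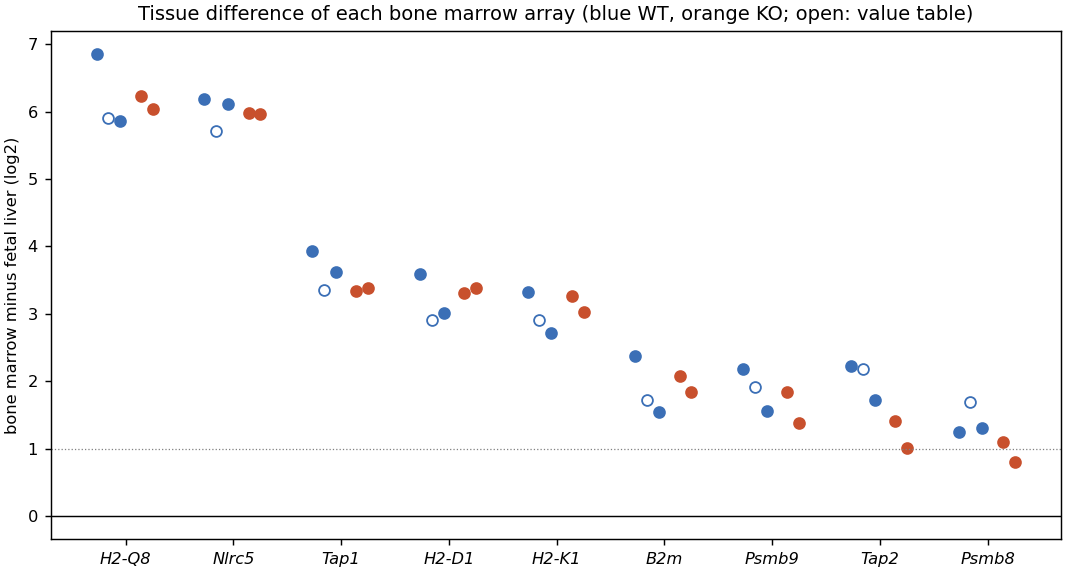
Difference of each bone marrow array from the fetal liver array of its genotype (log2), with WT in blue, KO in orange, open points for the value table's column of BM WT replicate 1, and a dotted line at 2-fold. Nlrc5 and H2-Q8 lie at 5.71 to 6.85, Tap1, H2-D1 and H2-K1 at 2.71 to 3.93, and B2m, Psmb9, Tap2 and Psmb8 at 0.80 to 2.37; for Nlrc5 the fetal liver side was not well above background.

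Set side by side by array, the 9 differences fell into ranges that did not overlap, a grouping made after the values were seen. Nlrc5 and H2-Q8 spanned 5.86 to 6.85 over the 4 bone marrow arrays (5.71 to 6.23 with the table column). Tap1, H2-D1 and H2-K1 spanned 2.71 to 3.93 (2.71 to 3.61), and B2m, Psmb9, Tap2 and Psmb8 spanned 0.80 to 2.37 (0.80 to 2.18). Within these ranges Tap1 lay above H2-K1 with either source, and with the scanner files Psmb8 lay below B2m and Psmb9. Among the KO arrays, over the 11582 genes above background on both sides, Tap1 ranked number 63, H2-D1 67, H2-K1 84, B2m 278, Psmb9 421, Tap2 748 and Psmb8 1053 from the largest rise. The orders differ between genes measured by different probes, whose response to the same change may differ.

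Because these genes moved in the same direction, the bases just before the starts of B2m, H2-K1, H2-D1, Psmb9 and Tap1 are shown from the RefSeq promoter table (GRCm38.p6). That table held these 5 and Psmb8, that is 6 of the 9, and H2-K1 with 2 start sites. The windows are the 250 bases before the start, 5′ to 3′ on the strand of the gene. Capitals mark TGACG, the core that CREB/ATF factors bind and that the X box region of class I promoters carries, and ATTGG, the inverted CCAAT that NF-Y binds at the Y box, each on either strand. The window of Psmb8 held neither and is not shown.
B2m, chr2:122147437-122147686, plus strand: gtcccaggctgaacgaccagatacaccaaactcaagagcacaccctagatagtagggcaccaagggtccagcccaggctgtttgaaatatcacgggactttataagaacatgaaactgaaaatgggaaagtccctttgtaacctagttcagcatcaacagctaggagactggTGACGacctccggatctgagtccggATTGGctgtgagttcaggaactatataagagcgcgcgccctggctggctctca
H2-K1, chr17:34000348-34000597, minus strand: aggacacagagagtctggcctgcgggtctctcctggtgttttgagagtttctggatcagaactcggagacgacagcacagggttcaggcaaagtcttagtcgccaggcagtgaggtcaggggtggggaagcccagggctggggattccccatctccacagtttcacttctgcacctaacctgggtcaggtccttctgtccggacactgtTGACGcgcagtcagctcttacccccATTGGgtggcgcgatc
H2-D1, chr17:35262844-35263093, plus strand: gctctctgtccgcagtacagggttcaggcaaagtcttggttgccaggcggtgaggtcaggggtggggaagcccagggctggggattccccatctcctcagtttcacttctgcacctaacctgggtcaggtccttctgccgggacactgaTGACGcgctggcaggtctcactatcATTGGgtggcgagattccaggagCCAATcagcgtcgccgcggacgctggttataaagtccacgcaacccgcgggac
In each of these 3 promoters TGACG was followed, after exactly 20 bases, by ATTGG. The TGACG began 78 bases before the start in B2m, 41 bases before it in H2-K1 (55 from the other start site) and 101 bases before it in H2-D1. That spacing was chosen after the matches were seen. It occurred on either strand in 30 of the 32841 promoter windows (0.0913%), or 26 of 27018 genes, counts that include these 3 genes. H2-M3, another class I gene, was among the 26, as were genes outside class I, such as Calu, Hnrnpf and Per1.

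Psmb9 and Tap1 start back to back on opposite strands, 225 bases apart, and the interval between the starts is shown because it precedes both genes.
Psmb9 to Tap1, chr17:34187331-34187555, plus strand: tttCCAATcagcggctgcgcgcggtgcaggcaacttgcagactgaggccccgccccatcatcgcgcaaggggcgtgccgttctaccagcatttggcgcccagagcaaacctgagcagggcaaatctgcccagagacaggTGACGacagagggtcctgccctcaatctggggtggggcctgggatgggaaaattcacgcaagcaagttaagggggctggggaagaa
Its CCAAT lies next to the start of Psmb9 and its TGACG 86 bases before the start of Tap1. It holds no pair at the spacing seen in B2m, H2-K1 and H2-D1. Among the KO arrays Tap1 differed between tissues by 3.36 and Psmb9 by 1.61, each by its own probe. Whether these sizes differ was not tested. Over the 6 genes, TGACG was found in 5 (17.8% of all windows) and ATTGG in the same 5 (33.9% of windows). The TGACG and the CCAAT between Psmb9 and Tap1 are each counted for both genes, so these 5 are not independent. The interferon response core (GAAA, any 2 bases, GAAA) was found only in B2m (2.98% of windows). The interferon gamma activated site TTCNNNGAA was found only in Psmb8 (7.02% of windows), and the kappa B core (GGG, any 5 bases, CC) in 5 of the 6 (45.8% of windows). These letters were searched on both strands, each motif by itself, and a match is a description of the sequence. Only exact matches were counted, so a gene without a match may still hold a site with other letters.

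Other genes of class I presentation were taken as lists, to be read beside the 7.24% of all genes called higher and the 9.7% called lower in the KO arrays. Of 13 other class I and class I-like genes tested in the KO arrays (24 listed, 19 on the array), limma called 9 higher in bone marrow and 0 lower, with a median difference of 2.65. H2-Q7 rose by 3.84 and H2-T10 by 3.46. Mr1, which presents vitamin B metabolites, was not well above background in fetal liver KO, and its rise was at least 5.04-fold. It entered the test only through bone marrow and so had to differ; of the other 12, limma called 8 higher. With the table column 8 of 13 rose in WT, beside 6.02% of all genes. Of 13 genes that load and supply peptide, all tested, limma called 0 higher and 1 lower in KO, with a median of -0.38. Calr, the chaperone calreticulin, fell by 1.57 (limma adjusted p = 0.0286), Tapbpl, an editor of the peptide cargo, differed by 1.19 (limma adjusted p = 0.129), and Psmb5, a constitutive proteasome subunit, differed by -0.95 (limma adjusted p = 0.255). In WT with the table column Tapbpl was called, at 1.52. Psmb10, the remaining immunoproteasome subunit, differed by -0.0026, and the proteasome activator genes Psme1 and Psme2 by -0.38 and -0.46, none of them called; these 3 were picked out after their values were seen.

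Genes of MHC class II, which present peptides to CD4 T cells, were also higher in bone marrow. Of 11 tested in KO (14 listed), limma called 7 higher and 0 lower, with a median of 1.88. H2-Eb1 rose by 4.66 ± 0.55 (SE) and Cd74, the invariant chain, by 4.52 ± 0.82 (SE). The 2 bone marrow KO arrays were far apart for Cd74, at 0.77 and 5.64, beside -1.32 in fetal liver KO. H2-Eb1 was 2.84 and 4.33 on these 2 arrays, beside -1.08. H2-Aa, not above background in fetal liver, rose at least 8.58-fold. H2-Aa and H2-Eb2 entered the test only through bone marrow, and of the other 9 limma called 5 higher. Of 20 interferon-stimulated genes tested in KO (22 listed), limma called 14 higher and 0 lower, with a median of 1.60, and in WT with the table column 15 of 20. Ifi44, Ifit1 and Ifit3 entered only through bone marrow, and of the other 17 limma called 11 higher in KO and 12 in WT. Ifi44 rose at least 49.1-fold and Ifit1 at least 7.22-fold in KO, both from below background in fetal liver, and Gbp2, a guanylate-binding protein gene, rose by 4.02. Of 20 genes of interferon signalling and of the factors that act on class I promoters tested in KO (22 listed), limma called 0 higher and 2 lower, a share near the 9.7% of all genes, with a median of 0.28. In KO Irf8 fell by 2.92 and Ifngr1, a chain of the interferon gamma receptor, fell by 2.07, and Nfkb1 differed by 1.29 (limma adjusted p = 0.0854). In WT Irf8 did not fall, at 0.53 with the table column and 1.22 with the scanner file. With the table column Ifngr1 differed by -1.16 and Nfkb1 by 0.63 in WT. With the scanner file of the doubtful array, limma called 0 genes in each of these 5 lists in the WT arrays.

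**Figure D3:**
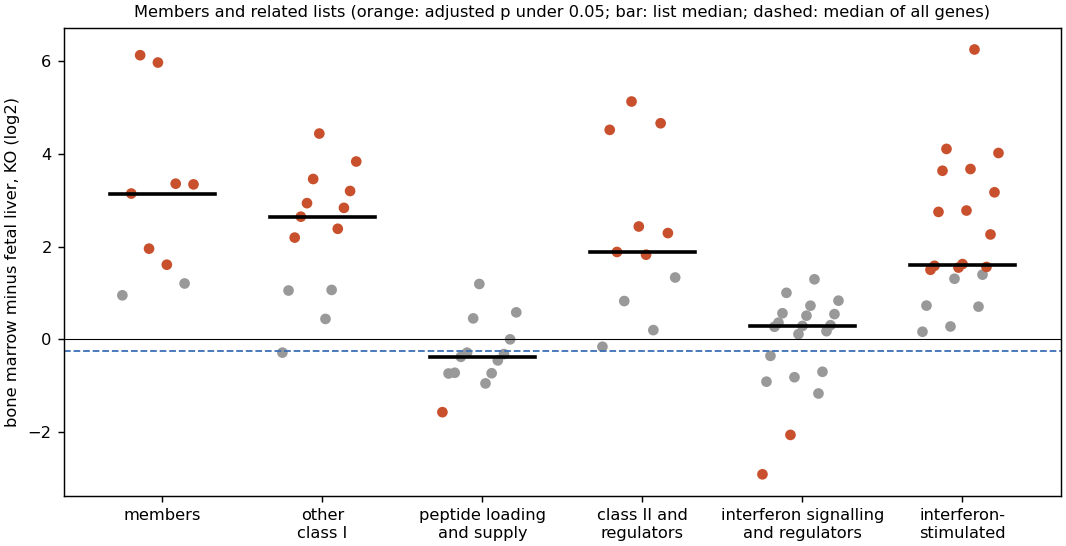
Bone marrow minus fetal liver among KO arrays (log2) for the 9 genes ("members") and the related lists, 1 point per gene tested, orange where limma's adjusted p was under 0.05, with a bar at the median of each list and a dashed line at the median of all genes tested (-0.25). The medians are 3.15 for the 9 genes, 2.65 for other class I genes, -0.38 for peptide loading and supply, 1.88 for class II, 0.28 for interferon signalling and 1.60 for interferon-stimulated genes; genes below background in fetal liver are plotted at their measured difference.

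Markers of other cell types also differed between the tissues, and for some lists the KO and WT arrays differed in this. Calls are from the KO arrays, where 7.24% of all genes were called higher and 9.7% lower. WT medians use the table column. Of 9 neutrophil markers measured, limma called 8 lower in bone marrow KO than in fetal liver KO. Their median difference was -4.79 in KO and -0.67 in WT. Their summed signal was 3057 to 3215 times the 75th percentile in fetal liver and 31.1 to 728 in bone marrow without the doubtful array. Of 11 monocyte, macrophage and dendritic markers 9 were lower in KO, with sums of 159 to 177 and 46.1 to 134. Their median difference was -2.92 in KO but 0.15 in WT. Of 9 erythroid markers 5 were lower in KO, with sums of 910 to 1590 and 42.1 to 613. Their median difference was -1.61 in KO and -3.14 in WT. Of 12 stem cell markers 7 were higher and 1 lower in KO, with sums of 64.5 to 71.4 and 111 to 207. Of those 7, 2 (Mecom and Slamf1) entered the test only through bone marrow and so had to differ. The median difference of the stem cell markers was 1.96 in KO and 0.58 in WT. Of 6 B lymphoid markers tested in KO 3 were higher and 0 lower, with a median difference of 1.5. Of those 3, 2 (Igll1 and Vpreb3) entered the test only through bone marrow. In WT the direction was opposite, with a median difference of -1.82 over 9 B lymphoid markers. B lymphoid sums were 33.9 to 45.1 in fetal liver and 15.4 to 41.8 in bone marrow, and Pax5, a defining B cell gene, was above background only in the doubtful scanner file. Hepatocyte markers were called lower for 3 of 6 and higher for 0, with medians of -1.72 in KO and -4.07 in WT. Their sums were 31.8 to 46.4 in fetal liver and 27.3 to 42.4 in bone marrow. T, NK and innate lymphoid markers were called lower for 4 of 9 and higher for 0 (medians -1.15 and -0.89). Endothelial markers were called higher for 2 of 7 and lower for 2 (medians -0.08 and 0.32). Tek, 1 of those called higher, entered only through bone marrow. Cell markers also differed between KO and WT bone marrow. With the table column limma called 4 of 9 neutrophil markers lower in KO and 0 higher, with a median of -3.21. It called 4 of 11 monocyte, macrophage and dendritic markers lower and 0 higher, with a median of -2.12. In that comparison 0.938% of all genes were called in either direction, and with the scanner files 0 of both lists were called. The part of these cells in the differences of the 9 genes was not tested.

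Between KO and WT bone marrow the 9 genes differed by less than 2-fold each and none was called. Over the 4 bone marrow arrays limma called 0 of the 9 with either source. The background was 0 of 13015 genes (0%) with the scanner files, where 549 had an unadjusted p under 0.05, and 120 of 12792 genes (0.938%) with the table column, where 1420 did. The KO minus WT differences ran from -0.51 for Nlrc5 to 0.20 for H2-Q8 with the scanner files (limma adjusted p 1.00), and from -0.46 for Psmb8 to 0.67 for H2-Q8 with the table column (limma adjusted p 0.400 to 0.992). The 95% confidence intervals of the 9 lay within -1.44 to 1.44 with the scanner files and -1.17 to 1.29 with the table column. The upper bound for H2-Q8 with the scanner files is a 2.71-fold rise, so that smaller changes are not excluded by these arrays.

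Nlrc5, by its brightest probe, was lower in both KO arrays (2.29 and 2.27) than in both WT arrays (2.83 or 2.35, and 2.75). This held with either source, at -0.51 ± 0.36 (SE) and, with the table column, -0.27 ± 0.27 (SE). Psmb8 was likewise lower in both KO arrays than in both WT arrays with either source, at -0.24 ± 0.37 (SE) and -0.46 ± 0.28 (SE). The second Nlrc5 probe overlapped with either source, at -3.21 and -2.63 in KO and -2.72 (table column -3.11) and -2.79 in WT. H2-Q8, H2-K1, H2-D1 and B2m were higher in both KO arrays with the table column, and overlapped with the scanner file. For H2-K1 this depended on the probe. Its second probe overlapped with either source, at 7.49 and 6.72 in KO and 7.75 (table column 7.06) and 6.98 in WT. Tap1 was lower in both KO arrays by the scanner file but overlapped by the table column, and Tap2 and Psmb9 overlapped with both. In all, by the brightest probe of each gene, KO and WT did not overlap for 3 of the 9 genes with the scanner files. That held for 28.5% of genes tested. With the table column it was 6 of the 9, against 37.2% of genes tested.

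**Figure D4:**
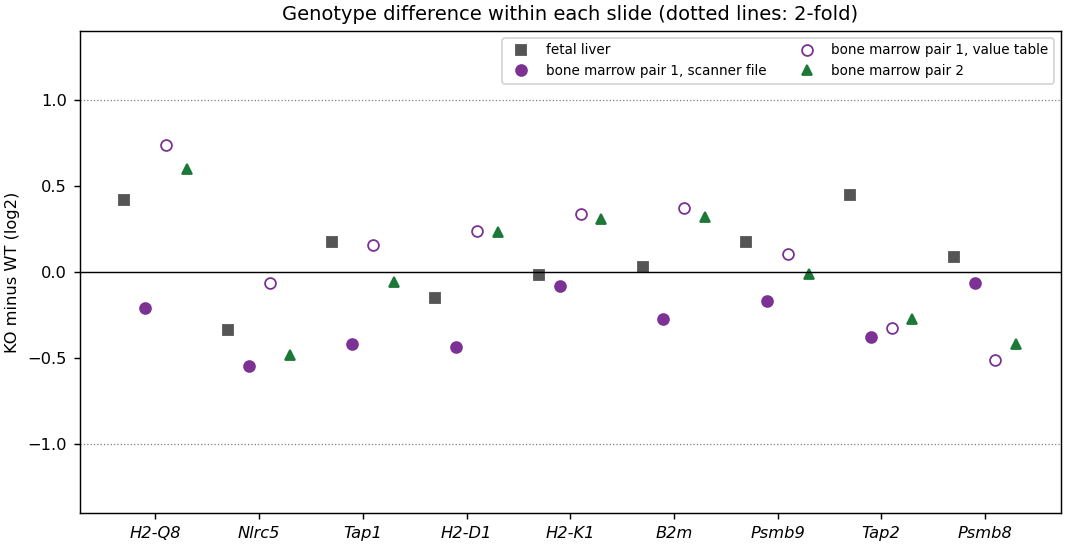
KO minus WT (log2) of each gene within each slide: fetal liver (squares), bone marrow pair 1 from the scanner file (filled circles) or with the value table's WT column (open circles), and bone marrow pair 2 (triangles), with dotted lines at 2-fold. No point passes 2-fold, and pair 1 from the scanner file lies below 0 for all 9 genes, while its table column gives 6 of 9 above 0.

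Within slides, the first bone marrow pair differed by -0.54 to -0.06 with the scanner file, below 0 for all 9 genes, and by -0.51 to 0.74 with the table column, above 0 for 6. The second pair differed by -0.48 to 0.60 and was above 0 for 4 of the 9. The doubtful array's scanner values lay above its table values by up to 0.95 (H2-Q8) for 8 of the 9 genes and below by 0.45 for Psmb8. In fetal liver, with 1 array per genotype and so no test, the KO minus WT differences ran from -0.34 for Nlrc5, which was not above background there, to 0.45 for Tap2. Of the 8 genes above background there, 0 passed 2-fold, where 9.85% of 12727 genes did. Whether the genotype difference itself differed between tissues was tested with limma, and 0 of the 9 were called with either source. That contrast called 0 of 13662 genes (0%) with the scanner files and 0 of 13501 genes (0%) with the table column, where 351 and 950 had an unadjusted p under 0.05.

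Among the related lists, limma called 0 genes for KO against WT in bone marrow with the scanner files. With the table column it called Irf8, which fell by 4.14 in KO (limma adjusted p = 0.029), and no other gene of these lists, the cell type markers aside. The genes named here had the largest scanner differences of their list, and their sizes changed with the source. Among class I genes H2-T24 was at 0.79 (table column 1.44), Mr1 at 0.79 (table column 0.52) and H2-M9 at -0.97, and H2-M9 was not tested with the table column. Among peptide loading genes Tapbpl was at -0.45 (table column -0.40), Tapbp at -0.35 (table column 0.03) and Psme3 at -0.31 (table column -0.20). Among interferon-stimulated genes Bst2 was at -1.64 (table column -0.84), Ifit3 at -1.54 (table column -0.25) and Gbp2 at 0.87 (table column 0.19). Among signalling genes Irf8 was at -4.83 (limma adjusted p = 0.922) with the scanner files, and Stat2 at -0.90 (table column 0.06). Class II genes depended most on the doubtful array: their median was -1.38 from the scanner file and 0.24 from the table column. H2-Aa was 6.17 and H2-Eb1 9.02 in that scanner file, beside -0.36 and 2.76 in its table column and -0.12 and 3.32 in bone marrow WT replicate 2. H2-DMb2 was 2.11 by the scanner file and -3.56 by the table column.

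The genes whose pattern over the 6 arrays was most like that of Nlrc5 were named by Pearson r, as a description with no test. The arrays fall into the 2 tissues, so r mainly reflects the tissue difference. With the scanner files they were Klf11, Phf11d, Esr1, Tcaim and Calhm6 (r 0.999 to 0.996), and with the table column Tcaim, Klf11, Trim16, Phf11b and Esr1. Like Nlrc5, Klf11, Esr1 and Tcaim were above background on neither fetal liver array. Phf11d, above background throughout, was -1.59 and -2.06 in fetal liver and 3.08 to 3.60 in bone marrow. H2-Q7 was most like the mean of the 9 genes with the scanner files (r = 0.998), followed by Rhbdd1, Cyp4f16, Klf11 and Phf11d. With the table column Gpx7, Slc35f2, Cngb1, Cpne2 and Klf11 came first. Between any of the 9 genes r was 0.938 to 0.998 with the scanner files and 0.880 to 0.998 with the table column.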

How the data were processed

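Per the labels' protocols, 10 ng of KSL cell RNA was amplified and carried a single dye, Cy3, on the Agilent arrays. Spot intensity comes from the deposited scanner files (software Agilent Feature Extraction, version 10.7.1.1, as the submitters' processing notes name it). The authors' deposited value table holds a linear ratio, which set against the scanner files equals the signal over a constant near the 75th percentile of the array, uncentred and in the same direction. Column medians were 0.0705, 0.0709, 0.057, 0.056, 0.063 and 0.064 (fetal liver WT and KO, then bone marrow WT and KO of replicate 1 and of replicate 2). What was done to the column of bone marrow WT replicate 1 is not given in the sources used here.

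From the deposited intensity, the log2 of gProcessedSignal was taken and the 75th percentile of the array subtracted. Control spots and outlier spots were left out. A gene was tested where its brightest probe was well above background on all arrays of at least 1 group compared. For that column of the table, a level of -3.7 (log2) replaced the flag and matched 99.1% of flags on the KO array of that slide. Tests used limma 3.58.1 (lmFit, eBayes) under R 4.3.3, with version 1.17.8 of the data.table package, and were checked on simulated data. Sequences and figures used Python 3.11.15, pandas 2.3.3 and matplotlib 3.10.9. Replicates are not said to be separate animals, so p-values may measure technical spread only. The number of arrays limits precision. The genes, lists and tests were chosen with earlier results of these data known. From each list the 3 genes with the largest difference were named for tissue (KO arrays) and for genotype (bone marrow), beside all 9 genes, the 5 genes most alike in pattern, and Trim28, Kit and Ly6a. An item withheld for evaluation is not reported here. Alternatives covered the value source, normexp background correction (offset 50), quantile normalization, probe averaging, filters, blocks, joint fits and left-out arrays. Normexp used the median signal, since the mean signal was not in the files. The files name another genome build than the reference table, so only the promoter table's coordinates are given.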

Additional observations from a re-analysis of the deposited data

How the results depend on the processing

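Every tissue difference of the 9 genes stayed above 0 under all alternatives run: 89 of 89 values in WT (1.25 to 6.85), 80 of 80 in KO (0.80 to 6.36) and 134 of 134 over both genotypes (0.95 to 6.47). The calls moved more, and the causes were not tested. In WT, the table column gave 9 genes of the set and 1821 genes in all in place of 0, and 7 and 865 with all 6 arrays in 1 fit (chosen after seeing the data), while the scanner files in that fit gave 1 gene in all. In KO, 1 fit of all 6 arrays gave 0 of the 9 and 1 gene in all, against 7 and 2205, and with the table column (added later) 1437 in all. Quantile normalization gave 1230 genes in KO, and the filter on all arrays 1060. Over both genotypes, against 5 and 287, the table column gave 9 and 3084, normexp 8 and 191, and quantile normalization 9. Added later, the table column with slide as a random block gave 827 genes, and leaving out bone marrow pair 1 gave 0 of the 9 and 0 genes. The median difference of the 9 was 3.66 (WT), 3.44 (KO) and 3.68 (both) after quantile normalization, and 2.50, 2.55 and 2.52 with the filter on all arrays, which drops Nlrc5. Quantile normalization also moved the median of all genes from -0.34 to -0.09 in WT, from -0.25 to -0.02 in KO and from -0.30 to -0.06 over both, and the split of calls over both genotypes from 119 higher and 168 lower to 186 and 166.

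Leaving out 1 array at a time over both genotypes gave 0 to 8 of the 9 and 0 to 1548 genes: 1548 without bone marrow WT replicate 1, 6 without WT replicate 2, and 0 or 1 without any other array. For KO against WT in bone marrow it gave 0 of the 9 each time, a median of -0.40 to 0.19, and 0 to 2409 genes: 2409 without WT replicate 2, 172 without WT replicate 1, and 0 without a KO array. The table column gave 120 genes there in place of 0. For the difference of genotype effects between tissues, it gave a median of -0.417 to 0.0455 and 0 to 1453 genes (1453 without WT replicate 2, 78 without WT replicate 1), and the table column a median of 0.0651. With the replicate number, which is also the slide, as a replicate block, 0 of the 9 and 0 genes were called with the scanner files, and 0 of the 9 and 1012 genes with the table column (added later). Deviations of same-numbered arrays correlated at 0.0454 (scanner) and 0.559 (table), over only 2 pairs. Slide as a random block could not be fitted for the difference between tissues. Single arrays in fetal liver and signal near background for Nlrc5 there limit what these values can show.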
